A study of Arabidopsis thaliana with 18 samples.

Results

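The tonoplast intrinsic proteins (TIPs) are the aquaporins of the vacuolar membrane, and Arabidopsis thaliana carries 10 genes for them. The genes were taken by locus, as the rows of the deposited expression table whose identifier is 1 of 10 listed TIP loci, and all 10 were found among the 27827 loci of that table. They are alpha-TIP (TIP3;1, AT1G73190), beta-TIP (TIP3;2, AT1G17810), gamma-TIP (TIP1;1, AT2G36830), gamma-TIP2 (TIP1;2, AT3G26520), gamma-TIP3 (TIP1;3, AT4G01470), delta-TIP (TIP2;1, AT3G16240), delta-TIP2 (TIP2;2, AT4G17340), delta-TIP3 (TIP2;3, AT5G47450), TIP4;1 (AT2G25810) and TIP5;1 (AT3G47440). The Greek names are used below, as the RefSeq annotation of assembly TAIR10.1 lists them. The rule uses no measured value.

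A TIP is a small membrane protein that forms a pore through which water, and in some members ammonia, urea or hydrogen peroxide, passes between the cytosol and the vacuole. Seeds store protein in protein storage vacuoles, whose membrane holds alpha-TIP and beta-TIP. During germination these vacuoles are converted into the large lytic vacuoles of the growing cell, whose membrane holds gamma-TIP and delta-TIP and whose swelling drives cell expansion.

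The study asked which transcripts are bound to ribosomes before and after germination, in wild-type Arabidopsis of the accession Col-0. RNA came from dry seeds, which the labels call freshly harvested, and from seedlings after 72 h of imbibition. From each stage, total RNA, monosomal RNA (transcripts that sediment with single ribosomes) and polysomal RNA (transcripts that carry several ribosomes) were hybridised to expression arrays. Each of the 6 groups had 3 replicate arrays, 18 in all, and each replicate was a pool from 8 plants. No group carried a mutation, a transgene or a chemical treatment. The 3 fractions were labelled as separate samples, and no label says whether the fractions with 1 replicate number came from 1 extract.

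Values are the deposited log2 intensities, normalised by the authors with RMA, and errors on group means are SD over 3 arrays (n = 3). A difference is called when its adjusted p is under 0.05 in limma's moderated test, fitted over all 18 arrays and all 27827 loci with Benjamini-Hochberg adjustment. Single values ran from 0.07 to 12.74, and the median of an array lay between 3.05 and 3.65. A TIP gene with values near or below that median was therefore no brighter than most loci. Replicate arrays of a group correlated at 0.957 to 0.990, and arrays of different stages at 0.634 to 0.712. The number of arrays limits the precision of every value. In whole seeds and seedlings, fewer cells of a type and less RNA per cell cannot be told apart.

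The stage labels were set beside marker genes. These lists were chosen with earlier results of these data known, so the match is a description and not an independent check. All 11 seed storage and late maturation markers stood above the median of each dry seed group, with list medians of 10.93 to 11.43 on single arrays. The 7 leaf photosynthesis markers all stood above the median in the 3 seedling groups, with list medians of 10.69 to 11.22, against 2.82 to 4.46 on the dry seed arrays. Of 7 root markers, between 5 and 6 stood above the median of a seedling group, and none of 5 pollen markers did so in any group.

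One array stood apart. On replicate 3 of the seedling polysomal RNA the median of the 11 seed markers was 6.49, against 3.22 and 3.28 on the other polysomal replicates, 3.63 to 3.66 in seedling total RNA and 3.39 to 4.02 in seedling monosomal RNA. The summed linear level of these markers was 1028 on that array and ran from 20379 to 26686 on dry seed arrays. Seedling monosomal replicate 1 had the next highest sum among seedlings, 477, and the sums of the other 7 seedling arrays lay between 100.2 and 249. The main results of TIP genes that rest on polysomal replicate 3 are given with and without it. Changes of the seed markers are given with it only.

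From dry seed to seedling both seed TIPs fell by 6.44 to 8.18 on the log2 scale in the 3 fractions, and gamma-TIP, gamma-TIP2, delta-TIP, delta-TIP2 and TIP4;1 rose in every fraction by 1.81 to 6.30. delta-TIP3 rose in monosomal and polysomal RNA. In total RNA 5 of 10 genes were higher in seedlings, 3 were lower and 2 were not called, where 62.1% of all loci were called, 28.8% as higher and 33.3% as lower. In monosomal RNA 6 were higher and 2 lower, against 51.6% of all loci called, 26.8% higher and 24.9% lower. In polysomal RNA 6 were higher and 2 lower, against 53.6% called, 26.7% higher and 26.8% lower. The median change of the 10 genes was 1.51 in total, 2.30 in monosomal and 1.70 in polysomal RNA, beside medians over all loci of -0.17, 0.03 and -0.03. Dry seed and seedling values did not overlap for 9 of 10 genes in total RNA, 8 in monosomal RNA and 9 in polysomal RNA, and the same held for 66.8%, 53.9% and 61.5% of all loci. Centring each array on its median lowers the change of every locus, to medians over all loci of -0.67, -0.33 and -0.46. With that scaling the split of all loci into higher and lower moved from 8019 and 9275 to 5783 and 15017 in total RNA, from 7447 and 6918 to 5529 and 10332 in monosomal RNA, and from 7436 and 7471 to 5582 and 12145 in polysomal RNA.

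**Figure D1:**
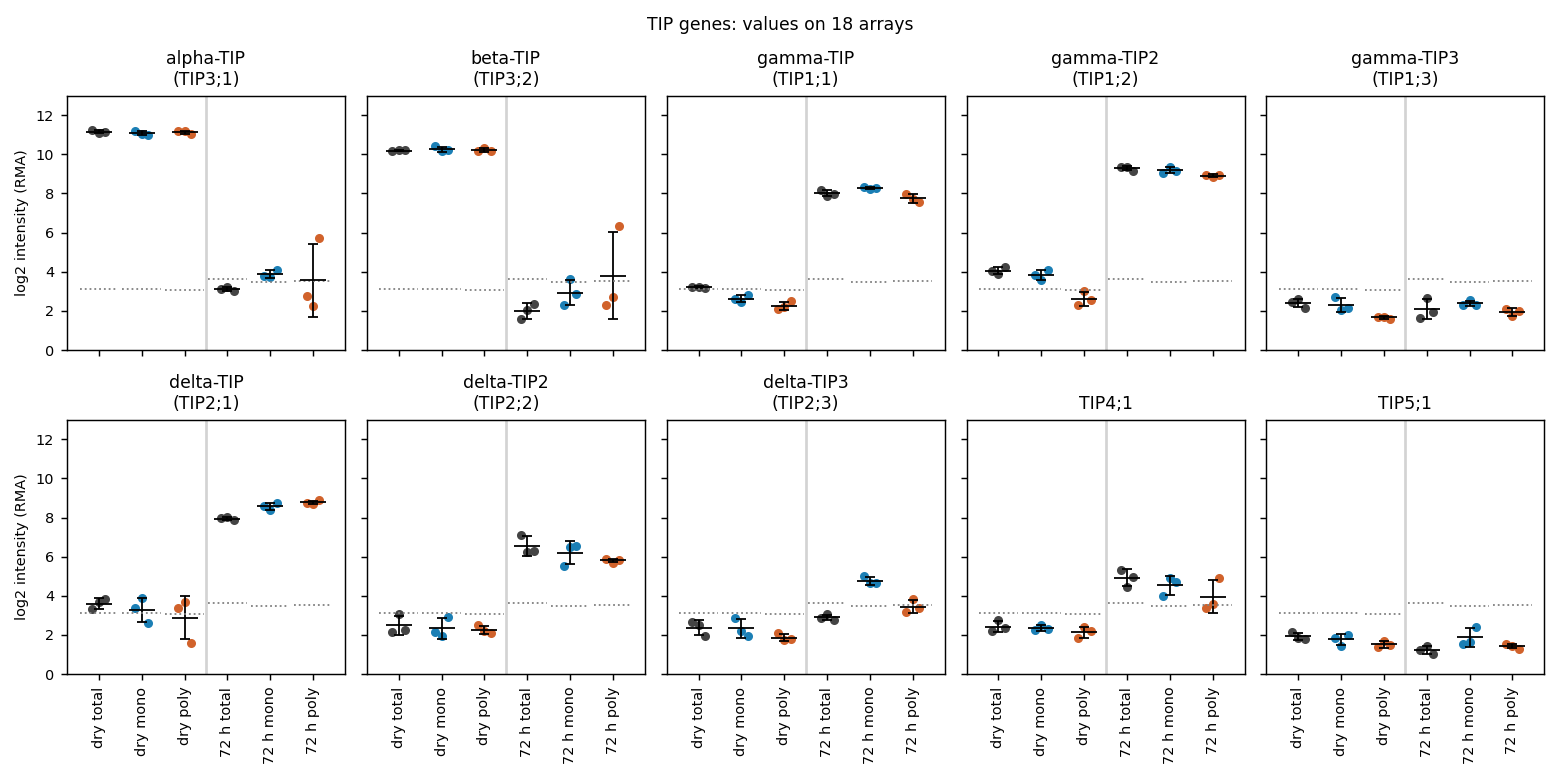
Log2 intensity (RMA) of each of the 10 TIP genes on the 18 arrays, by stage and RNA fraction; dots are single arrays in replicate order, black bars are means ± SD (n = 3) and dotted lines are the mean array median of the group. alpha-TIP and beta-TIP stand above 10 in dry seeds, and gamma-TIP, gamma-TIP2 and delta-TIP stand above 7 in seedlings.

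alpha-TIP and beta-TIP are the water channels of the protein storage vacuole. In dry seeds alpha-TIP measured 11.25, 11.09 and 11.14 in total RNA, 11.21, 11.04 and 11.01 in monosomal RNA and 11.17, 11.19 and 11.03 in polysomal RNA. In seedlings it measured 3.09, 3.23 and 3.02 in total RNA, 3.76, 3.74 and 4.10 in monosomal RNA and 2.74, 2.24 and 5.71 in polysomal RNA. Every dry seed array was above every seedling array, and the highest seedling value was that of polysomal replicate 3. The group means in dry seeds were 11.16 ± 0.08, 11.08 ± 0.11 and 11.13 ± 0.08, and in seedlings 3.12 ± 0.11, 3.87 ± 0.20 and 3.56 ± 1.88. From dry seed to seedling alpha-TIP changed by -8.05 in total RNA, a ratio of 264 (SE 0.52, adjusted p = 6.72e-11), by -7.22 in monosomal RNA (adjusted p = 3.44e-10) and by -7.57 in polysomal RNA (adjusted p = 1.58e-10). Without polysomal replicate 3 the polysomal change was -8.64.

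beta-TIP showed nearly the same course. Its dry seed values were 10.15, 10.21 and 10.21 in total RNA, 10.40, 10.17 and 10.22 in monosomal RNA and 10.17, 10.34 and 10.18 in polysomal RNA. Its seedling values were 1.58, 2.07 and 2.38 in total RNA, 2.32, 3.62 and 2.86 in monosomal RNA and 2.32, 2.72 and 6.35 in polysomal RNA. Again no seedling array reached the dry seed range, and polysomal replicate 3 lay nearest to it. The stage change was -8.18 in total RNA, a ratio of 291 (SE 0.64, adjusted p = 9.73e-10), -7.33 in monosomal RNA (adjusted p = 5.24e-09) and -6.44 in polysomal RNA (adjusted p = 3.23e-08), or -7.71 in polysomal RNA without replicate 3. The seedling levels of both genes in total RNA, 3.12 ± 0.11 and 2.01 ± 0.40, lay below every array median of that group. All 11 seed markers fell with them in each fraction, with median changes of -7.66, -6.74 and -6.60, the last with polysomal replicate 3 included.

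gamma-TIP and gamma-TIP2 encode the main water channels of the lytic vacuole in vegetative tissue. In dry seeds gamma-TIP measured 3.24, 3.23 and 3.16 in total RNA, 2.60, 2.47 and 2.83 in monosomal RNA and 2.08, 2.2 and 2.49 in polysomal RNA. Its seedling arrays gave 8.18, 7.87 and 7.99 in total RNA, 8.35, 8.21 and 8.27 in monosomal RNA and 7.97, 7.71 and 7.55 in polysomal RNA. The stages were far apart on all arrays. gamma-TIP rose by 4.80 in total RNA, 27.9-fold (SE 0.18, adjusted p = 2.98e-14), by 5.64 in monosomal RNA (adjusted p = 3.24e-15) and by 5.49 in polysomal RNA (adjusted p = 3.92e-15).

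gamma-TIP2 measured 4.02, 3.89 and 4.23 in dry seed total RNA, 3.85, 3.56 and 4.08 in monosomal RNA and 2.29, 3.0 and 2.57 in polysomal RNA. In seedlings it measured 9.34, 9.36 and 9.17 in total RNA, 9.02, 9.33 and 9.17 in monosomal RNA and 8.97, 8.84 and 8.94 in polysomal RNA. No dry seed value came within reach of a seedling value. The rise was 5.24 in total RNA, 37.8-fold (SE 0.20, adjusted p = 4.10e-14), 5.35 in monosomal RNA (adjusted p = 2.86e-14) and 6.30 in polysomal RNA, 78.5-fold (adjusted p = 2.87e-15). In dry seeds the polysomal arrays of gamma-TIP2 were all below the total and monosomal arrays.

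The delta-TIPs carry ammonia as well as water. delta-TIP, which is found in vacuoles of shoots and vascular tissue, measured 3.32, 3.66 and 3.84 in dry seed total RNA, 3.36, 3.86 and 2.63 in monosomal RNA and 3.36, 3.67 and 1.61 in polysomal RNA. Seedling arrays gave 7.97, 8.01 and 7.87 in total RNA, 8.58, 8.37 and 8.75 in monosomal RNA and 8.76, 8.72 and 8.88 in polysomal RNA. The dry seed ribosomal fractions were spread, with their lowest values in replicate 3, and the seedling arrays were tight. The rise was 4.34 in total RNA, 20.3-fold (SE 0.38, adjusted p = 4.71e-09), 5.28 in monosomal RNA (adjusted p = 2.71e-10) and 5.90 in polysomal RNA (adjusted p = 4.84e-11).

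delta-TIP2, known mainly from roots, measured 2.17, 3.06 and 2.26 in dry seed total RNA, 2.15, 1.93 and 2.94 in monosomal RNA and 2.51, 2.18 and 2.11 in polysomal RNA. In seedlings it measured 7.12, 6.24 and 6.30 in total RNA, 5.51, 6.51 and 6.56 in monosomal RNA and 5.89, 5.70 and 5.83 in polysomal RNA. The seedling arrays were all above the dry seed arrays, and the 3 seedling fractions ran from the total to the polysomal mean as 6.55 ± 0.50, 6.19 ± 0.59 and 5.80 ± 0.10. The rise was 4.06 in total RNA, 16.6-fold (SE 0.32, adjusted p = 1.20e-09), 3.85 in monosomal RNA (adjusted p = 2.71e-09) and 3.54 in polysomal RNA (adjusted p = 8.90e-09).

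delta-TIP3, also known from roots, had separate levels in the 3 seedling fractions. It measured 2.69, 2.51 and 1.92 in dry seed total RNA, 2.86, 2.2 and 1.95 in monosomal RNA and 2.09, 1.73 and 1.77 in polysomal RNA. In seedlings it measured 2.85, 3.06 and 2.78 in total RNA, 5.0, 4.65 and 4.66 in monosomal RNA and 3.17, 3.81 and 3.35 in polysomal RNA. All monosomal seedling arrays were above all polysomal ones, and these above all total ones. Total RNA gave a stage difference of 0.52 that missed the threshold (SE 0.25, adjusted p = 0.0752), although the groups did not overlap, and that passed it without dry seed total replicate 1 (0.68, adjusted p = 0.0412). The rise was 2.43 in monosomal RNA, 5.39-fold (adjusted p = 5.52e-08), and 1.58 in polysomal RNA, 2.99-fold (adjusted p = 1.55e-05).

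TIP4;1 is expressed in roots. It measured 2.2, 2.75 and 2.33 in dry seed total RNA, 2.25, 2.52 and 2.30 in monosomal RNA and 1.83, 2.39 and 2.2 in polysomal RNA. In seedlings it measured 5.34, 4.46 and 4.97 in total RNA, 3.98, 4.89 and 4.72 in monosomal RNA and 3.38, 3.56 and 4.92 in polysomal RNA. The polysomal value of 4.92 belongs to the replicate 3 array with the high seed markers, and the other 2 polysomal values were below every total and monosomal seedling value. The rise was 2.49 in total RNA, 5.63-fold (SE 0.34, adjusted p = 2.25e-06), 2.17 in monosomal RNA (adjusted p = 1.32e-05) and 1.81 in polysomal RNA (adjusted p = 1.02e-04), or 1.33 in polysomal RNA without replicate 3. The median of the 7 root markers on the polysomal arrays was 4.05, 4.47 and 3.98, lowest on replicate 3. Their summed linear level on the same arrays was 191, 262 and 299, highest on replicate 3. The part of root or seed transcripts in the value of TIP4;1 on that array was not tested.

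gamma-TIP3 and TIP5;1 are known from pollen, and both stayed below the array median in every group. gamma-TIP3 ran from 1.60 to 2.72 in dry seeds and from 1.64 to 2.64 in seedlings, with overlapping stages in total and monosomal RNA. Its stage differences were -0.33, 0.09 and 0.28 (SE 0.24 each), and none was called. The total RNA difference passed the threshold without seedling total replicate 2 (-0.61, adjusted p = 0.0284) and after median centring of the arrays (-0.84, adjusted p = 0.00399). TIP5;1 measured 2.14, 1.85 and 1.82 in dry seed total RNA and 1.25, 1.43 and 1.02 in seedling total RNA. These 2 groups did not overlap, and the difference of -0.70 was called (SE 0.23, adjusted p = 0.0112), but not with cyclic loess scaling (-0.32, adjusted p = 0.210), without dry seed total replicate 1 (adjusted p = 0.0508) or without seedling total replicate 3 (adjusted p = 0.0534). Its differences in monosomal and polysomal RNA were 0.11 and -0.10, not called. None of the 5 pollen markers stood above the median of any group, with list medians of 1.67 to 2.62 on single arrays.

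**Figure D2:**
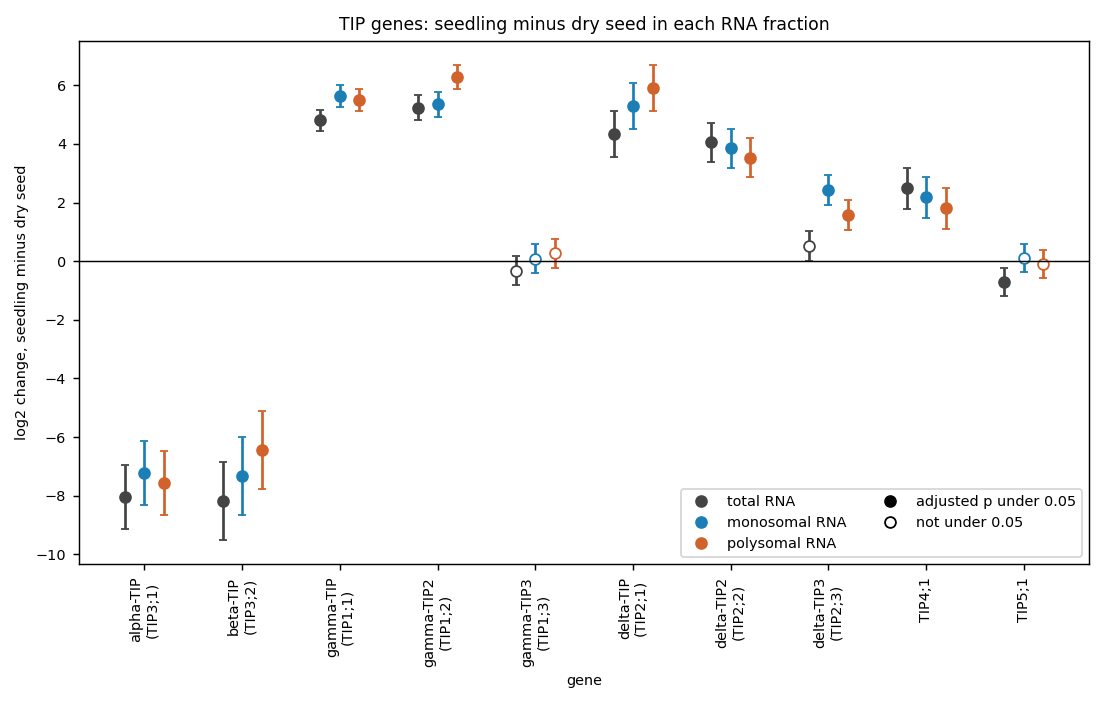
Log2 change from dry seed to seedling (y axis) for each TIP gene (x axis) in total, monosomal and polysomal RNA; whiskers are 95% confidence intervals of the fit, filled points have an adjusted p under 0.05. The 2 seed TIPs lie between -8.18 and -6.44, and 5 genes lie above 1.8 in every fraction.

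Within dry seeds, the total, monosomal and polysomal fractions were compared in pairs. The pairs share arrays, so their values are given side by side. Monosomal RNA differed from total RNA in none of the 10 TIP genes, where 6.21% of all loci were called, 3.46% as higher and 2.74% as lower. At an unadjusted p under 0.05 there was 1 gene, gamma-TIP, with a difference of -0.58 (SE 0.18, adjusted p = 0.0581). Its groups did not overlap, which held for 1 of 10 genes and for 23.1% of all loci. It passed the threshold when the lowest 25% of the loci were left out (adjusted p = 0.0409).

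Polysomal RNA of dry seeds was lower than total RNA for 2 of 10 genes, gamma-TIP and gamma-TIP2, against 4.65% of all loci called, 3.15% as higher and 1.50% as lower. gamma-TIP2 had 4.05 ± 0.17 in total and 2.62 ± 0.36 in polysomal RNA, a difference of -1.43 (SE 0.20, adjusted p = 9.13e-04). gamma-TIP had 3.21 ± 0.04 and 2.26 ± 0.21, a difference of -0.95 (SE 0.18, adjusted p = 0.00638), which missed the threshold without dry seed polysomal replicate 1 (-0.87, adjusted p = 0.0531). The groups did not overlap for 4 of 10 genes, against 32.1% of all loci. Polysomal RNA was also lower than monosomal RNA for gamma-TIP2, by -1.21 (SE 0.20, adjusted p = 3.16e-04), the 1 gene of 10 called where 19.0% of all loci were, 11.5% as higher and 7.49% as lower. Here 2 of 10 genes did not overlap, against 40.3% of all loci. The dry seed levels of both genes were close to the array median, in contrast to their seedling levels.

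The seed TIPs had similar normalised levels in the dry seed fractions. In every comparison of fractions, levels are relative to the other loci of an array. They do not give how the transcripts of a gene were divided between monosomes and polysomes. alpha-TIP differed by -0.08 between monosomal and total RNA and by -0.03 between polysomal and total RNA. beta-TIP differed by 0.07 and 0.04. The spread of these 2 genes on the seedling arrays widens the intervals of the common fit, to -1.17 to 1.01 for the monosomal difference of alpha-TIP. Fitted on the dry seed groups compared alone, the 95% intervals were -0.48 to 0.32 for monosomal minus total and -0.38 to 0.32 for polysomal minus total for alpha-TIP, and -0.33 to 0.47 and -0.30 to 0.38 for beta-TIP.

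In seedlings, monosomal RNA was higher than total RNA for 2 of 10 genes, delta-TIP3 and TIP5;1, where 31.8% of all loci were called, 17.2% as higher and 14.5% as lower. delta-TIP3 had 2.90 ± 0.14 in total and 4.77 ± 0.20 in monosomal RNA, a difference of 1.87, 3.66-fold (SE 0.25, adjusted p = 2.62e-05). TIP5;1 measured 1.54, 1.65 and 2.43 in monosomal RNA, all above its total RNA values and all below the array median, with a difference of 0.64 (SE 0.23, adjusted p = 0.0367). This call rested on single arrays: the difference was 0.36 without monosomal replicate 3 (adjusted p = 0.210), and the call was also lost without total replicate 1 (adjusted p = 0.0757) or total replicate 3 (adjusted p = 0.131) and with cyclic loess scaling (0.29, adjusted p = 0.335). The fractions did not overlap for 5 of 10 genes, against 44.4% of all loci. One of these was delta-TIP, at 7.95 ± 0.07 in total and 8.57 ± 0.19 in monosomal RNA, a difference of 0.62 that was not called (95% interval -0.17 to 1.41, adjusted p = 0.212). It was called in 1 of 13 alternatives (adjusted p = 0.0460).

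Polysomal RNA of seedlings was lower than total RNA for 1 of 10 genes, TIP4;1, against 20.5% of all loci called, 9.86% as higher and 10.7% as lower. The difference was -0.97 (SE 0.34, adjusted p = 0.0466) with replicate 3 and -1.45 (adjusted p = 0.00240) without it, and it missed the threshold when polysomal replicate 1 or 2 or total replicate 1 or 3 was left out (adjusted p of 0.105 to 0.209). The fractions did not overlap for 4 of 10 genes, against 41.3% of all loci. delta-TIP stood at 8.78 ± 0.08 in polysomal RNA, with all 3 values above the total RNA values. Its difference of 0.84 was not called in the common fit (adjusted p = 0.124) and was called when the 2 groups were fitted alone (adjusted p = 0.00781). delta-TIP2 differed by -0.75 with no overlap and was not called (95% interval -1.42 to -0.08, adjusted p = 0.106).

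The seed TIPs in seedling polysomal RNA depended on replicate 3. alpha-TIP differed from total RNA by 0.45 with that array (adjusted p = 0.582) and by -0.63 without it (adjusted p = 0.0394). beta-TIP differed by 1.79 with it (adjusted p = 0.0534) and by 0.51 without it (adjusted p = 0.260). It passed the threshold without polysomal replicate 1 (2.53, adjusted p = 0.00981) or replicate 2 (2.32, adjusted p = 0.0258). Against monosomal RNA, alpha-TIP differed by -0.31 with it (adjusted p = 0.707) and by -1.38 without it (adjusted p = 4.48e-04). beta-TIP differed from monosomal RNA by 0.86 with it (adjusted p = 0.352) and by -0.41 without it (adjusted p = 0.354), so its direction turned and neither value was called. The seed marker medians of the 3 polysomal arrays, 3.22, 3.28 and 6.49, had the same array highest.

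**Figure D3:**
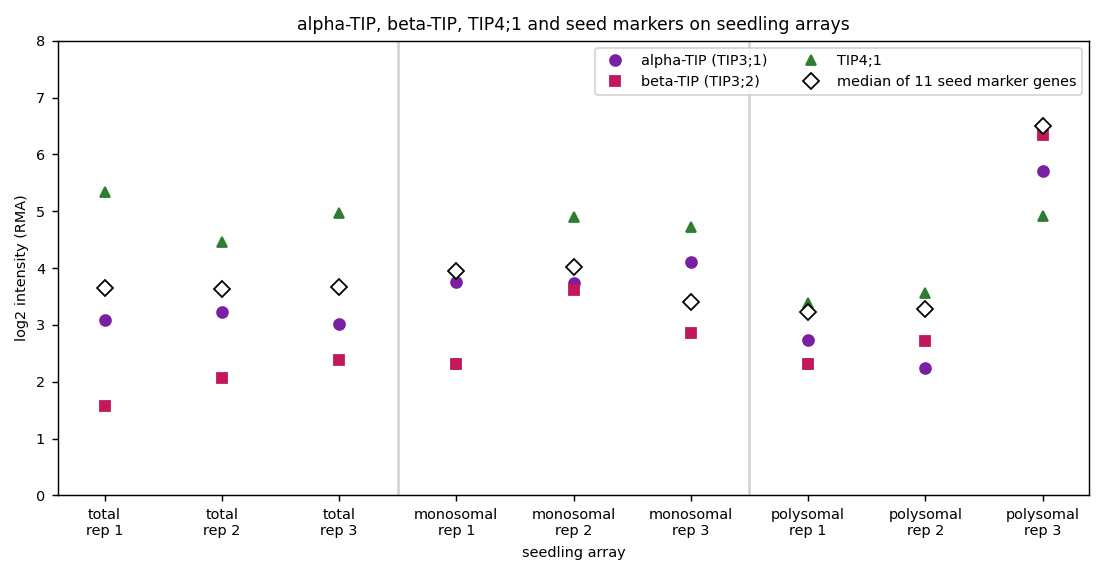
Log2 intensity (RMA) of alpha-TIP, beta-TIP and TIP4;1 and the median of 11 seed marker genes (y axis) on the 9 seedling arrays (x axis). On polysomal replicate 3 the seed marker median is 6.49, alpha-TIP is 5.71, beta-TIP is 6.35 and TIP4;1 is 4.92, each the highest polysomal value.

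Between polysomal and monosomal RNA of seedlings, 2 of 10 genes were lower in polysomal RNA, against 19.1% of all loci called, 10.9% as higher and 8.17% as lower. delta-TIP3 had 4.77 ± 0.20 in monosomal and 3.44 ± 0.33 in polysomal RNA, a difference of -1.32 (SE 0.25, adjusted p = 0.00135) that was called under all 13 alternative settings tried for it. gamma-TIP had 8.28 ± 0.07 and 7.74 ± 0.21, a difference of -0.53 (SE 0.18, adjusted p = 0.0419). It was called in 6 of 13 alternatives, and not when any monosomal replicate or polysomal replicate 2 or 3 was left out (adjusted p of 0.0592 to 0.139). The groups did not overlap for 5 of 10 genes, against 35.1% of all loci. TIP4;1 differed by -0.58 (adjusted p = 0.231) with polysomal replicate 3 and by -1.06 without it (adjusted p = 0.0198).

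**Figure D4:**
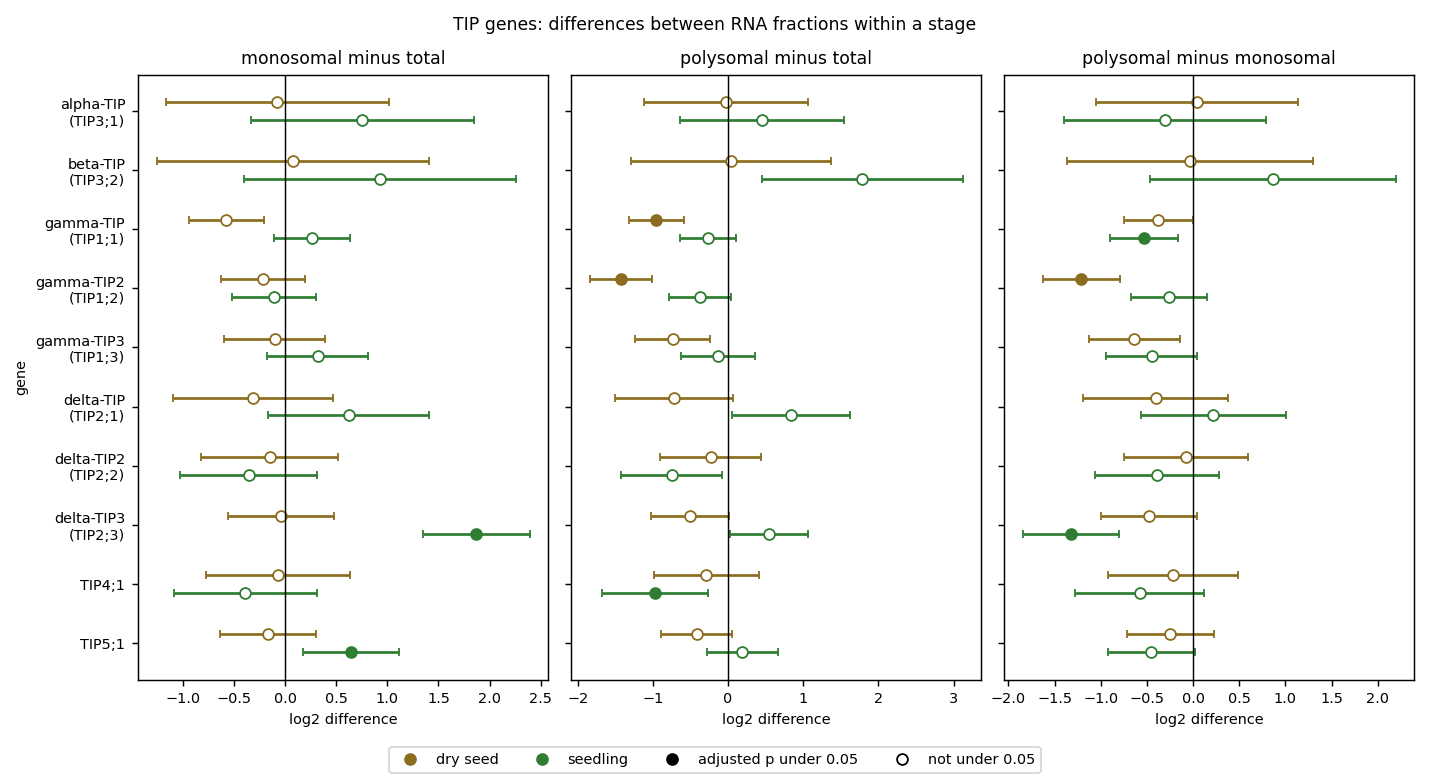
Log2 difference between RNA fractions (x axis, 1 panel per pair) for each TIP gene (y axis) in dry seeds and seedlings; whiskers are 95% confidence intervals and filled points have an adjusted p under 0.05. delta-TIP3 in seedling monosomal minus total RNA, at 1.87, is the called difference farthest from 0 among the TIP genes.

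Whether a fraction difference was the same at both stages was tested as the seedling difference minus the dry seed difference. For monosomal minus total RNA this was called for 2 of 10 genes, against 19.1% of all loci, 9.27% as higher and 9.85% as lower. delta-TIP3 moved from -0.04 in dry seeds to 1.87 in seedlings, a stage difference of 1.91 (SE 0.35, adjusted p = 0.00123) that was called in 19 of 19 alternatives. gamma-TIP moved from -0.58 to 0.26, a stage difference of 0.84 (SE 0.25, adjusted p = 0.0252), which missed the threshold without dry seed monosomal replicate 2 (adjusted p = 0.0579) or seedling total replicate 2 (adjusted p = 0.0609). Neither gene had a called difference between these fractions in dry seeds, and gamma-TIP had none in seedlings either. The means of delta-TIP3 were below the array median in dry seeds and in seedling total RNA.

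For polysomal minus total RNA the stage difference was called for gamma-TIP2, against 9.00% of all loci, 4.04% as higher and 4.96% as lower. It moved from -1.43 in dry seeds to -0.37 in seedlings, a stage difference of 1.05 (SE 0.28, adjusted p = 0.0240). The call was lost in 4 of 19 alternatives, without dry seed polysomal replicate 1 or 3, dry seed total replicate 3 or seedling total replicate 3 (adjusted p of 0.0502 to 0.0751). For polysomal minus monosomal RNA gamma-TIP2 was again the 1 gene called, against 10.5% of all loci, 5.69% as higher and 4.80% as lower. Its stage difference was 0.95 (SE 0.28, adjusted p = 0.0360), called in 8 of 19 alternatives and lost when any of 8 single arrays was left out. Both of these comparisons use the same polysomal arrays. delta-TIP had a stage difference of 1.56 between polysomal and total RNA that was not called (adjusted p = 0.0700) and passed without dry seed polysomal replicate 2 (1.96, adjusted p = 0.0286). delta-TIP3 had one of 1.06 (adjusted p = 0.0648) that passed without dry seed total replicate 3 (1.28, adjusted p = 0.0286). alpha-TIP had a stage difference of -0.35 between polysomal and monosomal RNA (adjusted p = 0.836), and of -1.43 without seedling polysomal replicate 3 (adjusted p = 0.00466). The stage differences of beta-TIP were not called, and with 1 array left out at a time they varied widely. They ran from 0.47 to 2.49 for polysomal minus total RNA and from -0.38 to 1.63 for polysomal minus monosomal RNA. Both were lowest without seedling polysomal replicate 3.

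The other aquaporins were taken as families. The plasma membrane intrinsic proteins (PIPs) carry water into the cell, the nodulin-26-like proteins (NIPs) carry small neutral solutes such as glycerol and boric acid, and the small basic proteins (SIPs) sit in the endoplasmic reticulum. Of 25 such genes, 15 rose and 3 fell in total RNA, 12 rose and 2 fell in monosomal RNA, and 12 rose and 2 fell in polysomal RNA. Of all loci, 28.8%, 26.8% and 26.7% were called as higher and 33.3%, 24.9% and 26.8% as lower. The median changes of the 25 genes were 1.06, 0.77 and 0.41. With arrays centred on their medians the counts were 13 higher and 7 lower in total, 11 and 3 in monosomal, and 11 and 4 in polysomal RNA. That centring also left fewer of all loci called as higher and more as lower, as given above. The centred counts, here and for the families below, are therefore not to be read beside these shares. Of the 13 PIPs, 10, 8 and 9 rose in the 3 fractions and none was called as lower, except that 1 was lower in total and 1 in monosomal RNA with either other scaling (median centring or cyclic loess). PIP2;7 went from 2.72 to 7.98 in total RNA, a change of 5.26, and PIP2;6 changed by 4.53 in monosomal and 4.87 in polysomal RNA. Of the 9 NIPs, 2 rose and 3 fell in total RNA, or 2 and 6 with arrays centred on their medians. NIP1;1 rose by 4.61 in monosomal RNA, while NIP2;1 fell by 2.77 in polysomal RNA and NIP1;2 fell by 1.12 in total RNA. No PIP, NIP or SIP gene fell as far as the seed TIPs, the lowest change being that of NIP2;1.

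In dry seeds none of the 25 other aquaporins was called between any pair of fractions in limma's test, and 2, 1 and 2 of them had an unadjusted p under 0.05 in the pairs of monosomal and total, polysomal and total, and polysomal and monosomal RNA. Of all loci, 6.21%, 4.65% and 19.0% were called in these pairs. In seedlings 3 were higher and 2 lower in monosomal than in total RNA, 4 were lower in polysomal than in total RNA, and 6 were lower in polysomal than in monosomal RNA. Among all loci the shares in these 3 pairs were 17.2%, 9.86% and 10.9% higher and 14.5%, 10.7% and 8.17% lower. NIP3;1, a channel gene expressed in roots, was higher in monosomal than in total RNA by 1.22. It was lower in polysomal than in monosomal RNA by -1.07, as delta-TIP3 was by 1.87 and -1.32. NIP3;1 stayed below the array median in seedlings, at 2.13 in total, 3.35 in monosomal and 2.28 in polysomal RNA. The pollen marker PRF5 (1.28 and -1.06) and the embryo regulator gene LEC1 (1.22 and -0.58) were called in the same directions, also below the median. So were the root marker EXPA7 (0.86 and -1.23) and the vacuolar proton pump gene VHA-e1 (0.97 and -1.67), both above the median. In each of the 2 pairs 1 of 5 pollen markers and 1 of 7 root markers was called. Of 27 proton pump genes, 6 were higher and 1 lower in the first pair, and 2 higher and 4 lower in the second. delta-TIP2 and TIP4;1, also known from roots, had lower means in monosomal than in total RNA, neither called. SIP1;1 was lower in polysomal than in total RNA by -1.48, and NIP2;1 by -1.68.

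**Figure D5:**
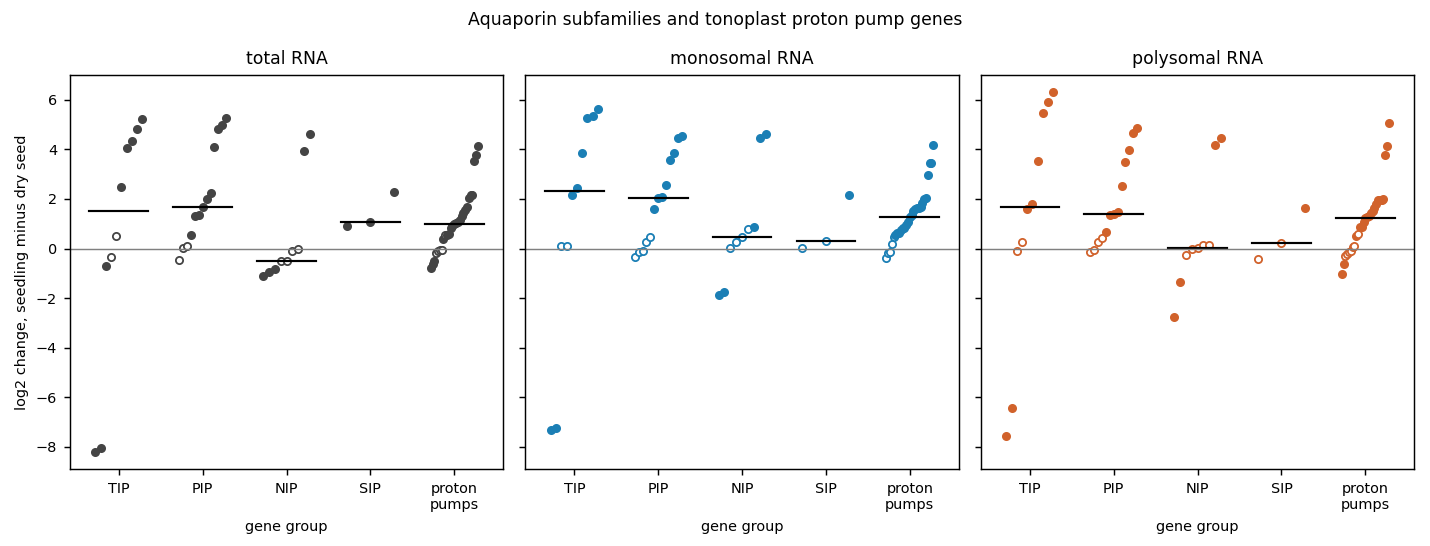
Log2 change from dry seed to seedling (y axis) of the TIP, PIP, NIP and SIP genes and of 27 tonoplast proton pump genes (x axis), 1 panel per RNA fraction; each point is a gene, filled with an adjusted p under 0.05, and the line is the group median. The 2 seed TIPs are the lowest points of each panel, and the TIP medians are 1.51, 2.30 and 1.70.

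The vacuolar membrane also holds the proton pumps that energise transport, the V-type ATPase (VHA subunits) and the pyrophosphatase AVP1. Of 27 pump genes, 19 rose and 3 fell in total RNA, 22 rose and none fell in monosomal RNA, and 18 rose and 2 fell in polysomal RNA, with median changes of 1.01, 1.27 and 1.24. Among all loci the shares were 28.8%, 26.8% and 26.7% higher and 33.3%, 24.9% and 26.8% lower. With arrays centred on their medians the pump counts were 15 higher and 6 lower in total, 18 and 3 in monosomal, and 16 and 5 in polysomal RNA. The split of all loci also moved toward lower with that centring, so these counts are not to be read beside the shares. VHA-E3, a stalk subunit gene, rose by 4.13 in total and 5.07 in polysomal RNA. VHA-B3, a subunit of the catalytic head, rose by 3.76, 4.16 and 4.12. VHA-a2, the gene of a tonoplast-located subunit, fell by 1.02 in polysomal RNA. AVP1 stood at 9.85 in seedling total RNA and was lower in polysomal RNA by -0.64.

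Transcription factors of seed maturation, among which ABI3 is known to act on the seed TIP genes, were also measured. Of 7 such genes, 5 fell in total RNA, 3 in monosomal RNA and 3 in polysomal RNA, and 7, 3 and 6 did so after median centring. With the deposited values 33.3%, 24.9% and 26.8% of all loci were called as lower in the 3 fractions. Median centring raised these numbers for all loci too, as given above, so the centred counts are not to be read beside these shares. ABI5 changed by -5.01, -5.66 and -5.43 and ABI3 by -3.76, -3.95 and -3.80. LEC1, a regulator of embryo development, was the 1 gene called as higher, by 0.47 in monosomal RNA (adjusted p = 0.0440), at levels below the array median in both stages, and no gene of the list was called as higher in 12 of 14 alternatives, both other scalings and the replicate block among them.

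For each TIP gene the 3 loci whose profile over the 18 arrays was most alike were found by Pearson's r, among loci that spanned at least 50% of its range. All profiles share the same arrays and the same 2 stages, so the values are descriptions. GASA3, ASN1 and AT3G58450 were most like alpha-TIP (r of 0.997 to 0.998). CRU2, a storage globulin gene and 1 of the 11 seed markers, was most like beta-TIP (r = 0.997), followed by SESA5, a storage albumin gene, and AT5G45690. For gamma-TIP these were AT5G44580, AT5G57760 and the arabinogalactan protein gene AGP4, and for gamma-TIP2 the photosystem II gene PSBW (r = 0.996), AT1G12080 and AT3G47650. PSBW had its lowest mean in dry seed polysomal RNA, at 5.14, against 6.19 in total and 6.41 in monosomal RNA. It was picked for its profile over these same arrays, so this is part of the match and not a further result. For delta-TIP the loci were CAD5, a gene of lignin synthesis, the tubulin gene TUB5 and the pyrophosphatase gene PPa6, and for delta-TIP2 AT2G43550, UXS4 and LTL1 (r = 0.985 each).

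Looser matches were found for delta-TIP3, TIP4;1, gamma-TIP3 and TIP5;1. For delta-TIP3 they included AT3G06590 (r = 0.938) and AT5G01610 (r = 0.932). For TIP4;1 the loci were AT4G12510, GH9B13 and the peroxidase gene PER64 (r of 0.964 to 0.968). Of the 3 loci found for each of gamma-TIP3 and TIP5;1, none had an r over 0.940.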

How the data were processed

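The deposited table holds log2 intensities of 27827 loci on 18 arrays. Per the submitters' processing notes, the authors normalised the arrays with RMA. The array's name, the RMA version, the grouping of probes and the build are not given in the sources used here. All 18 columns were used, 0 were left out, and each was matched to its sample by label. No value was missing and 27241 loci matched the RefSeq TAIR10.1 table, which gave symbols.

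The values were fitted as deposited with limma 3.58.1 in R 4.3.3, as 6 group means over 18 arrays (12 residual degrees of freedom) without a block, with 12 contrasts, empirical Bayes moderation and Benjamini-Hochberg adjustment over all 27827 loci for each contrast, at 0.05. The members and gene lists were chosen with earlier results of these data known. Of other genes, those named are, in each list, comparison and direction, the 2 called with the largest changes, from which a selection is printed, and the 3 loci most alike each TIP gene by Pearson's r, of which 1 is not reported here. On simulated data with 50 loci changed per size, for total RNA between stages, 0 of 50 changes of 0.5, 21 of 1, 48 of 2 and 50 of 4 were called, with 3 false calls among 27827 loci. Per the labels' protocols, the plants stood in randomized complete blocks and each of the 3 replicates was a pool of 8 plants. No label says that a replicate number marks the same block, or the same pool, in every group.

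The replicate numbers were checked for pairing. Of 45 pairs of groups and numbers, none deviated together with a correlation over 0.1 (range -0.06 to 0.08), and samples were treated as sharing only a number. Every pair within the seedling stage was positive, at 0.01 to 0.08. The check therefore does not show that the fractions with 1 number were unpaired. Alternatives were median centring, cyclic loess, leaving out the lowest 25% of loci, a trended robust prior, a fit on the compared groups alone, a replicate block, a required change of 1, each array left out, and, added after seeing the data, seedling polysomal replicate 3 and monosomal replicate 1 left out together.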

Additional observations from a re-analysis of the deposited data

Results flagged for a closer look

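For 4 results the difference between RNA fractions was not the same in seedlings as in dry seeds, by limma's test of the difference itself. For delta-TIP3 (TIP2;3) the monosomal minus total difference was 1.91 higher in seedlings (adjusted p = 0.00123). For gamma-TIP (TIP1;1) the same difference was 0.84 higher in seedlings (adjusted p = 0.0252). For gamma-TIP2 (TIP1;2) the polysomal minus total difference was 1.05 higher in seedlings (adjusted p = 0.0240), and its polysomal minus monosomal difference was 0.95 higher (adjusted p = 0.0360). The 2 results for gamma-TIP2 rest on the same polysomal arrays, and gamma-TIP and gamma-TIP2 were near the array median in dry seeds. delta-TIP3 was below it, at 2.37 in dry seed total, 2.34 in dry seed monosomal and 2.90 in seedling total RNA. Only its seedling monosomal mean, 4.77, was above.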

How the results depend on the processing

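Of 1796 values of single TIP genes recomputed under an alternative, 1661 kept their direction and their side of the threshold, 47 lost a call and 36 gained one in the same direction, 50 changed sign without being called before or after, and 2 changed sign with a call. One of the 50 was beta-TIP in seedling polysomal minus monosomal RNA, at 0.86 with all arrays and -0.41 without seedling polysomal replicate 3. The 2 with a call were alpha-TIP in seedling polysomal minus total RNA, -0.63 without seedling polysomal replicate 3 and -0.63 without that array and monosomal replicate 1, against 0.45 with all arrays, and its range with 1 array left out at a time was -0.63 to 1.11. With 1 array left out at a time, the number of TIP genes called between stages ran from 7 to 9 in total RNA and stayed at 8 in monosomal and polysomal RNA. Between dry seed fractions it ran from 0 to 0 for monosomal minus total, 1 to 2 for polysomal minus total and 1 to 1 for polysomal minus monosomal RNA. In seedlings these ranges were 1 to 2, 0 to 2 and 1 to 3, and for the stage differences of the fractions 1 to 3, 0 to 2 and 0 to 1. Median centring gave 2 genes for the stage difference of polysomal minus total RNA (against 1) and 0 for polysomal minus monosomal RNA (against 1). Cyclic loess gave 2 genes in dry seed polysomal minus monosomal RNA (against 1), 1 in seedling monosomal minus total (against 2), 0 in seedling polysomal minus total (against 1) and 3 for the stage difference of polysomal minus total RNA (against 1). Leaving out the lowest 25% of loci, which removes gamma-TIP3 and TIP5;1, gave 1 in dry seed monosomal minus total (against 0), 1 in seedling monosomal minus total and 2 in seedling polysomal minus total RNA. Fitting the compared groups alone gave 1 in seedling polysomal minus monosomal (against 2), 2 for the stage difference of polysomal minus total and 0 for that of polysomal minus monosomal RNA. The replicate block gave 2 in seedling polysomal minus total RNA, where beta-TIP gained a call (adjusted p = 0.0449), and changed no other count of TIP genes by over 1.5 times. A required change of 1 gave 1 in dry seed polysomal minus total (against 2), 1 in seedling monosomal minus total, 0 in seedling polysomal minus total, 1 in seedling polysomal minus monosomal, 1 for the stage difference of monosomal minus total (against 2) and 0 for that of polysomal minus monosomal RNA. Leaving out seedling polysomal replicate 3 and monosomal replicate 1 together gave 4 in seedling monosomal minus total, 2 in seedling polysomal minus total, 5 for the stage difference of monosomal minus total and 2 for that of polysomal minus total RNA. The share of all loci called under each alternative is not given beside these counts. A shift in a count is therefore not a result particular to the TIP genes. The cause of these shifts was not tested, apart from the fewer loci or arrays that an alternative itself leaves. With 3 arrays a group, small changes can be missed. On simulated data with 200 changed loci, 0 of 50 changes of 0.5 were called. Far more loci were called between the real stages, where limma called a change of 0.47 in LEC1 (adjusted p = 0.0440). The simulation therefore does not set the smallest change that can be called here. Genes below the array median have little room to show a fall.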
